A study of Mus musculus with 6 samples.

Results

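Chemokines and their receptors were examined in the gastrocnemius, a calf muscle, of mice that lack SPARC, a secreted glycoprotein that binds collagen. Members were all genes whose symbol is Ccl, Cxcl, Ccr or Cxcr followed by a digit, together with Cx3cl1, Cx3cr1, Xcl1, Xcr1 and Ackr1 to Ackr4, each read from a probe set that carries that single symbol. There were 56 members among 19938 named genes, namely 34 ligands and 22 receptors. RNA from 3 wild type and 3 Sparc knockout males was hybridised to 1 Affymetrix gene array per sample. All mice were 12 weeks old and all carry the strain label B6;129S-Sparctm1Hwe/J, a mixed B6 and 129S background. On such a background, a difference in B6 and 129S alleles between the groups cannot be told apart from an effect of Sparc loss. The knockouts are labelled as homogenous for the Sparc allele, an allele carried by the whole animal and not by muscle fibres alone. An array was treated as 1 animal, since the design text mentions the muscle of single mice.

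Chemokines are small secreted proteins that guide the movement of cells, above all of leukocytes. They are grouped by the spacing of their first cysteines into CC, CXC, C and CX3C ligands, and they bind receptors that signal through inhibitory G proteins. Atypical receptors bind the same ligands without that signal and take them up or carry them across cells. In muscle, chemokines of resident macrophages, connective tissue cells and vessels draw monocytes into injured tissue, and CXCL12 with its receptor CXCR4 guides muscle precursor cells.

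Only Ccl8 and Cxcr4 changed between the genotypes at an adjusted p of 0.05, and both were higher in the knockouts. Values were compared as log2 of the deposited intensity with limma over all 16487 genes that passed a filter on dim probe sets, with p-values adjusted by the Benjamini-Hochberg method. Of the 43 members tested, 2 rose and 0 fell, while 0.995% of all genes tested passed, 0.321% higher and 0.673% lower. At an unadjusted p of 0.05, 5 members were higher and 1 lower, beside 8.16% and 10.3% of all genes tested. The groups did not overlap in 7 members, beside 25% of all genes tested. These were Ccl8, Cxcr4, Ackr1, Ccl22, Ackr4 and Ccr7, with the knockouts above the wild types, and Cxcl9, with the knockouts below.

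The 250 bases upstream of the annotated start of Ccl8, Cxcr4 and Cxcl9 are shown because the first 2 genes are the ones that rose and Cxcl9 had the most negative change. They are taken from RefSeq promoters of build GRCm38.p6 at chr11:82114935-82115184 on the plus strand for Ccl8, chr1:128592300-128592549 on the minus strand for Cxcr4 and chr5:92328080-92328329 on the minus strand for Cxcl9. Capitals mark matches, on either strand, to a TATA box (TATAAA), to a form of the kappaB site bound by RelA (GGNNTTTCC) or to part of the interferon-stimulated response element (GAAANNGAA).
Ccl8: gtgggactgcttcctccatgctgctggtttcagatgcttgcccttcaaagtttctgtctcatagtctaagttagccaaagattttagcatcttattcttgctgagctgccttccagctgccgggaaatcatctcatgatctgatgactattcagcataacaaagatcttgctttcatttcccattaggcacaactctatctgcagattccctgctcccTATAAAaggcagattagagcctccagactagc
Cxcr4: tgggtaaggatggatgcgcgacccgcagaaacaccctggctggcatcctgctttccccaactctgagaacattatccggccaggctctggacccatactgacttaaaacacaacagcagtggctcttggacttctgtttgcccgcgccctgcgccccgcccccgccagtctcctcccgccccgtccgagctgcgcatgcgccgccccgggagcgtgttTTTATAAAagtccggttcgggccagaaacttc
Cxcl9: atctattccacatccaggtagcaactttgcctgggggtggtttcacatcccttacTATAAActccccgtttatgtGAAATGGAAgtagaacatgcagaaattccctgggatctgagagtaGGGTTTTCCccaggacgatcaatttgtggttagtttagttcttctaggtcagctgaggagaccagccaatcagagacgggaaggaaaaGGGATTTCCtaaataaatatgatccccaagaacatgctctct

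The TATA box lay 32 to 27 bases before the start in Ccl8, and 30 to 25 bases before it in Cxcr4, where a match on the other strand overlaps it. In Cxcl9 the kappaB form occurred at 130 to 122 and at 42 to 34 bases before the start, the interferon element at 175 to 167 and a TATA box far from the start, at 195 to 190. Promoters were matched for 42 members, each counted once per gene symbol, whereas the shares of all promoters count every promoter sequence. The kappaB form was in 9 of them (21.4%), among them Cxcl1, Cxcl2, Cxcl3, Cxcl9 and Cxcl10, and in 4.93% of all 32851 promoters of the same length. The TATA box was in 14 (33.3%) and in 12.4% of all promoters. The interferon element was in 8 (19%) and in 7.13% of all promoters. The windows of Ccl8, Cxcr4 and Cxcl9 held no match to the other 2 motifs searched on both strands. These were the gamma-activated site (TTCNNNGAA) and the AP-1 site (TGANTCA). Each was found for 4 members (9.52%), and in 7.02% and 6.75% of all promoters. A match is a description of the letters, and sites for other factors were not searched. Within the 3 sequences no kind of motif overlapped another kind.

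The targeted gene checked the labels. On the log2 scale Sparc read 11.8 ± 0.072 in wild types and 6.34 ± 0.47 in knockouts (SD, n = 3 each). The median intensity per array was 40.5 to 44.7. All 12 muscle fibre markers passed the dim filter, with a summed intensity of 86464 to 87595 in wild type and 76553 to 85231 in knockout arrays. Of these markers 9 had a negative and 3 a positive change, with a median of -0.10 and 0 past the threshold. All knockouts lay below all wild types in 7 markers and above in 1, beside 13.8% and 11.1% of all genes tested. The part of fibre content in the changes of other genes was not tested. Knockout arrays varied more than wild types: the median SD per gene was 0.163 against 0.0912 over all genes tested, and 0.193 against 0.124 over the 43 members tested. In these bulk samples a change in the number of cells of a type and a change in RNA per cell cannot be told apart.

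A member was called dim where its mean over all 6 arrays lay under 3.90 on the log2 scale, the 25th percentile of all probe sets. This held for 13 of the 56 members, 4 ligands and 9 receptors, which were not tested. The dim ligands were Ccl26, Cxcl2, Cxcl3 and Cxcl15, with means of 2.57 (Cxcl2) to 3.89 (Ccl26). The dim receptors were Ccr1, Ccr1l1, Ccr3, Ccr8, Ccr9, Cxcr2, Cxcr5, Cxcr6 and Xcr1, with means of 3.06 (Cxcr2) to 3.85 (Xcr1). Among members near the filter, Ccl26 lay just inside it, and Ccr6 (4.02) and Cxcl5 (4.13) just passed. Ccr1, a receptor of several inflammatory CC ligands, read 4.79 in knockout array 1 but 3.36 to 3.86 in the other arrays. The files hold no detection calls, so a dim level is not shown to be background.

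**Figure D1:**
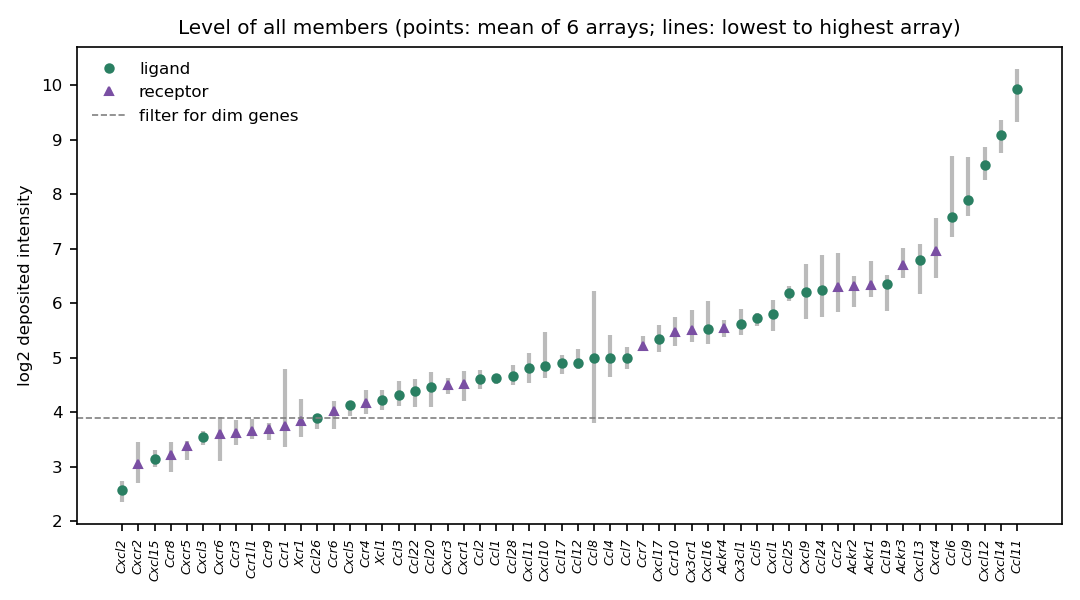
Level of all 56 members on the log2 intensity scale. Points are means of 6 arrays (circles, ligands; triangles, receptors), lines run from the lowest to the highest array, and the dashed line is the filter for dim genes at 3.90. The 13 dim members sit at the left, 9 of them receptors, and the lines of Ccl8, Ccl6 and Ccr1 are long.

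Among ligands read from a probe set with a single symbol, the highest means were those of Ccl11, Cxcl14 and Cxcl12, which connective tissue cells are known to make. Probe sets shared by copies of Ccl21 (8.12 to 11.16 over the arrays) or of Ccl27 (up to 9.32) carry several symbols and were not ranked. Probe sets differ in how strongly they bind, so this order is not an order of transcript amounts. Ccl11, eotaxin-1, which attracts eosinophils, read 9.83, 9.96 and 10.16 in wild type and 10.31, 9.96 and 9.33 in knockout arrays 1, 2 and 3. The knockout arrays lay on both sides of the wild types, and the change was -0.12 ± 0.22 (SE; limma adjusted p = 0.841). Cxcl14 read 8.88, 9.04 and 9.33 in wild type and 9.37, 9.15 and 8.75 in knockout arrays. Its change was 0.01 ± 0.17 (SE; limma adjusted p = 0.99), with knockout array 1 the highest and knockout array 3 the lowest of the 6.

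Ccl8, also called MCP-2, is a CC ligand made by macrophages that attracts leukocytes. It read 3.80, 4.11 and 4.42 in wild type arrays 1, 2 and 3, and 6.22, 5.67 and 5.73 in knockout arrays 1, 2 and 3. Every knockout array lay above every wild type array by more than the spread within either group. The group means were 4.11 ± 0.31 and 5.87 ± 0.31 (SD, n = 3 each), and the log2 change was 1.77 ± 0.19 (SE; limma adjusted p = 0.00636), or 3.40-fold. Wild type array 1 lay under the dim filter and the other wild type arrays close to it, so the wild type level behind this fold may be background signal. The call held in all 15 alternatives run, with adjusted p-values of 0.00336 to 0.0476 and changes of 1.59 to 1.92. In the stricter dim filter, at 4.81, Ccl8 stayed in through its knockout level alone, so that alternative gives no support.

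**Figure D2:**
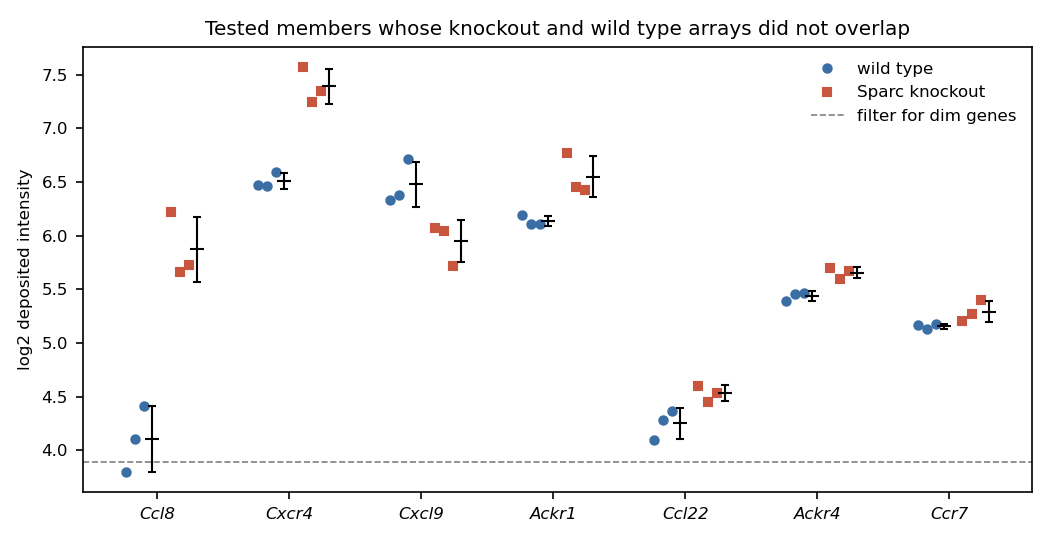
Log2 intensity of the 7 tested members whose groups did not overlap. Blue circles are the 3 wild type arrays and red squares the 3 knockout arrays, black bars give the mean and SD of each group, and the dashed line is the dim filter at 3.90. Ccl8 moved from near the filter to between 5.67 and 6.22, and Cxcl9 is the one gene with knockouts below wild types.

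Ccl8 lies in a run of 6 CC ligand genes, Ccl2, Ccl7, Ccl11, Ccl12, Ccl8 and Ccl1, with at most 3 other protein-coding genes between neighbours in the RefSeq gene order. Its 5 neighbours in that run all passed the dim filter and none of them passed the test, with changes of -0.12 (Ccl11) to 0.14 (Ccl7). Ccl2, or MCP-1, the best known attractant of monocytes, read 4.53, 4.77 and 4.62 in wild type and 4.42, 4.66 and 4.73 in knockout arrays. These groups overlapped, with a change of -0.03 ± 0.12 (SE; limma adjusted p = 0.923). Ccl7, or MCP-3, read 5.08, 4.93 and 4.79 against 5.20, 5.03 and 4.99, with a change of 0.14 ± 0.11 (SE; limma adjusted p = 0.569). Ccl12, or MCP-5, had a change of 0.10 ± 0.12 and Ccl1 one of 0.07 ± 0.10 (SE).

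Of the receptors known to bind CCL8 in mouse or human, Ccr1 and Ccr8 were dim. Ccr8 read 3.08, 3.46 and 3.42 in wild type and 2.91, 3.35 and 3.05 in knockout arrays. Ccr2, the receptor of inflammatory monocytes, read 6.33, 6.11 and 6.18 in wild type and 6.93, 5.84 and 6.41 in knockout arrays. Knockout array 1 was the highest and knockout array 2 the lowest of all arrays. The change was 0.19 ± 0.23 (SE; limma adjusted p = 0.738), and it was -0.08 without knockout array 1 and 0.46 without knockout array 2.

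Ccl6 and Ccl9, CC ligands that macrophages and other myeloid cells make, were high in knockout array 1 only. Ccl6 read 7.24, 7.65 and 7.34 in wild type and 8.71, 7.23 and 7.31 in knockout arrays. Ccl9 read 7.78, 7.75 and 7.81 in wild type and 8.68, 7.70 and 7.61 in knockout arrays. Their changes were 0.34 ± 0.35 and 0.22 ± 0.25 (SE), with limma adjusted p-values of 0.67 and 0.708, and without knockout array 1 they were -0.14 and -0.13. Ccl24, eotaxin-2, which attracts eosinophils, read 6.21, 6.33 and 6.32 in wild type and 6.88, 6.00 and 5.75 in knockout arrays, so that knockout array 1 lay above and the other knockouts below all wild types. Its change was -0.07 ± 0.25 (SE; limma adjusted p = 0.921), -0.41 without knockout array 1 (adjusted p = 0.0975) and 0.16 without knockout array 3 (adjusted p = 0.782). Knockout array 1 held the highest value of the 6 arrays in 17 of 43 members tested (39.5%), against 22.2% of all genes tested.

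Macrophage markers stood high in the same array. The macrophage list had a positive change in all 14 members, with 0 past the threshold and a median change of 0.63 (5.34e-05 over all genes tested). At an unadjusted p of 0.05, 10 were higher and 0 lower, beside 8.16% and 10.3% of all genes tested. Relative to the wild types, the macrophage median lay higher by 1.18, 0.40 and 0.29 in knockout arrays 1, 2 and 3. The summed intensity of the list was 2522 to 2807 in wild type and 3503 to 6275 in knockout arrays. Monocyte markers, without member Ccr2, had 3 genes higher at an unadjusted p of 0.05 (8.16% of all genes tested) and 0 past the threshold. They had a positive change in all 5 tested genes. Their median was higher by 1.14, 0.39 and 1.15 in these arrays, with Chil3 dim, and their summed intensity was 1486 to 1657 in wild type and 2158 to 4588 in knockout arrays. This list holds the matrix genes Fn1 and Vcan, which connective tissue cells also make, and Fn1, the brightest, read 9.69 to 9.83 in wild type and 11.08, 10.33 and 11.77 in knockout arrays. The fibroblast list median was higher by 0.68, 0.15 and 0.71 in the same arrays. Ccl8 was 2.12, 1.56 and 1.62 above its wild type mean in the same arrays, and its change was 1.59 without knockout array 1. The part of macrophage, monocyte and fibroblast content in the values of Ccl8, Ccl6 and Ccl9 was not tested.

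**Figure D3:**
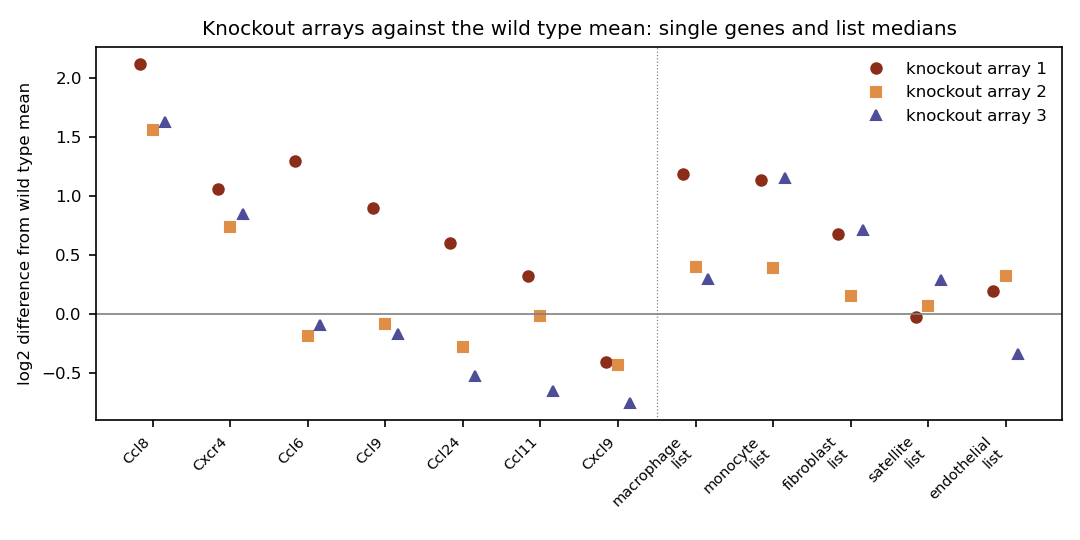
Log2 difference of each knockout array from the wild type mean, for 7 members (left of the dotted line) and for the medians of 5 marker lists (right). Ccl8 and Cxcr4 lie above 0 and Cxcl9 below 0 in all 3 knockout arrays, whereas Ccl6 and Ccl9 lie above 0 in knockout array 1 alone. The macrophage median lies at 1.18, 0.40 and 0.29 in knockout arrays 1, 2 and 3, and its part in these genes was not tested.

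Cxcr4, the receptor of CXCL12 on leukocytes, vessel cells and muscle satellite cells, was the other gene that rose. It read 6.47, 6.46 and 6.60 in wild type arrays and 7.57, 7.25 and 7.35 in knockout arrays. The lowest knockout array lay above the highest wild type array. The group means were 6.51 ± 0.075 and 7.39 ± 0.16 (SD, n = 3 each), and the log2 change was 0.88 ± 0.11 (SE; limma adjusted p = 0.0113), or 1.84-fold. The call was lost when any 1 wild type array was left out, at changes of 0.86, 0.86 and 0.92 without wild type arrays 1, 2 and 3 and adjusted p-values of 0.0851, 0.091 and 0.0676. It held in the other 12 alternatives.

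The ligand and the scavenger of the same axis did not pass. Cxcl12, or SDF-1, read 8.40, 8.52 and 8.34 in wild type and 8.80, 8.86 and 8.27 in knockout arrays. Knockout arrays 1 and 2 lay above and knockout array 3 below all wild types. Its change was 0.22 ± 0.16 (SE; limma adjusted p = 0.503), and 0.41 without knockout array 3 (adjusted p = 0.114). Ackr3, an atypical receptor that takes up CXCL12, read 6.47, 6.74 and 6.73 in wild type and 7.02, 6.57 and 6.66 in knockout arrays, which overlapped, with a change of 0.10 ± 0.14 (SE; limma adjusted p = 0.756).

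Marker lists of cells known to carry Cxcr4 were read beside it. Satellite cell markers, without Cxcr4, had a median change of 0.09 over 7 genes, with 0 past the threshold. At an unadjusted p of 0.05, 2 were higher and 1, at -0.32, lower, beside 8.16% and 10.3% of all genes tested. Relative to the wild types, the list median lay at -0.025, 0.068 and 0.29 in knockout arrays 1, 2 and 3. The summed intensity of the list was 652 to 684 in wild type and 735 to 885 in knockout arrays. The 2 satellite cell markers with the smallest p were those that were higher, Vcam1, an adhesion molecule, at 0.31 ± 0.11, and Itga7, a laminin receptor, at 0.43 ± 0.17 (SE). Endothelial markers had a median change of -0.0045 over 10 genes and 0 higher or lower at an unadjusted p of 0.05, with a summed intensity of 3566 to 3941 in wild type and 2796 to 4591 in knockout arrays. The part of these cells, of macrophages and of monocytes in the change of Cxcr4 was not tested.

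The ligands of CXCR3, which attract activated T cells and are induced by interferon-gamma, stood lower or overlapped. Cxcl9 read 6.34, 6.38 and 6.72 in wild type and 6.07, 6.05 and 5.72 in knockout arrays. All knockouts lay below all wild types, with a change of -0.53 ± 0.14 (SE). It did not pass over all genes (limma adjusted p = 0.109), nor in any of the 15 alternatives, where adjusted p-values were 0.0814 to 0.333. Cxcl10, its neighbour in the gene order, read 4.63, 4.86 and 5.47 against 4.81, 4.69 and 4.63, with a change of -0.28 ± 0.20 (SE; limma adjusted p = 0.509). The high value was in wild type array 3 alone, which was also the highest array for Cxcl9. Cxcl11 read 4.79, 4.82 and 4.73 against 4.55, 5.08 and 4.88, with a change of 0.05 ± 0.14 (SE; limma adjusted p = 0.887). The receptor Cxcr3 read 4.58, 4.33 and 4.45 against 4.59, 4.41 and 4.63, and its groups overlapped.

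Most receptors had small positive values, of which Cxcr4 alone passed the test. Of the 13 receptors tested, 11 had a positive change (84.6%, against 50.0% of all genes tested), with a median of 0.18 and a range from -0.12 (Cxcr1) to 0.88 (Cxcr4). Of the 30 ligands tested, 17 had a positive change (56.7%), with a median of 0.06 and a range from -0.53 (Cxcl9) to 1.77 (Ccl8). The receptor median held at similar size in each knockout array, at 0.14, 0.14 and 0.23 over the wild types. A change of less than 0.2 on the log2 scale was seen in 28 of the 43 members (65.1%) and in 68.0% of all genes tested. With SEs of 0.0908 to 0.348 over the members, changes of this size could not be told from 0. Larger changes could be missed as well. In simulated data with equal spread in both groups, the test called 26.8% of changes of 0.5 and 80.3% of changes of 1.

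**Figure D4:**
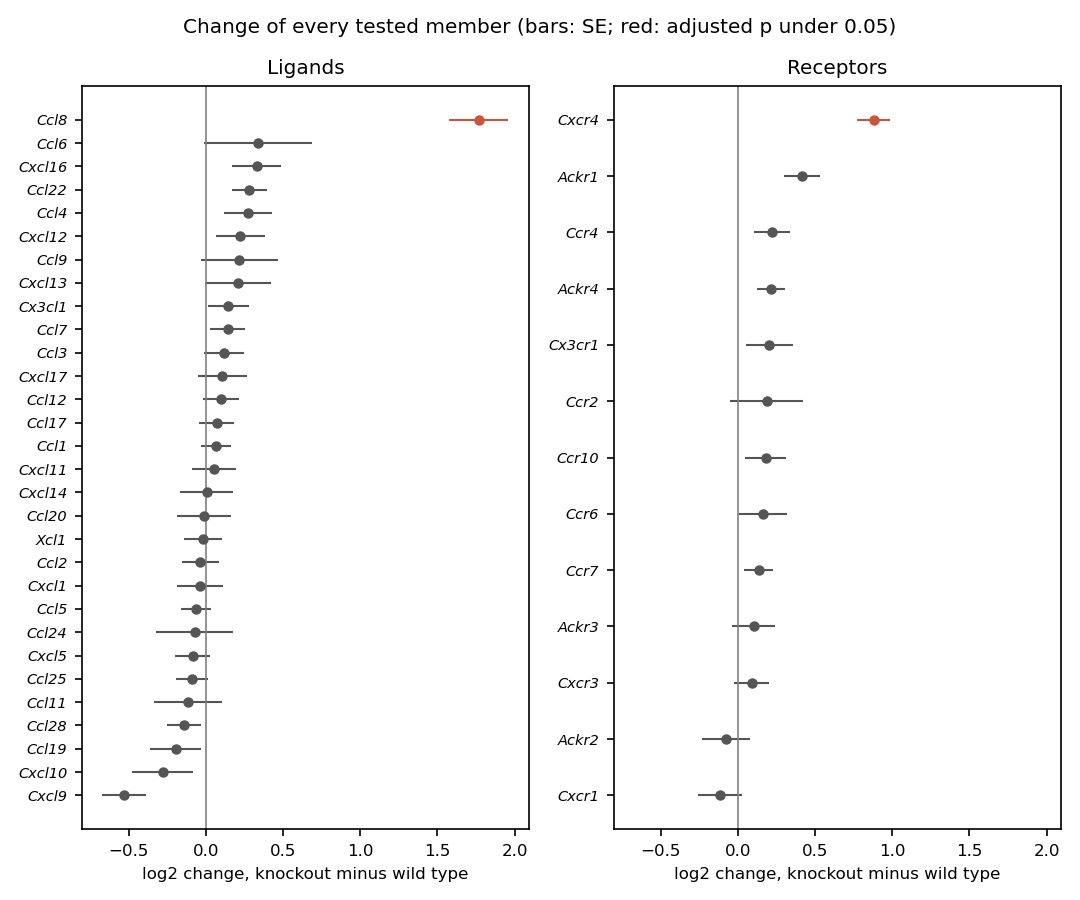
Log2 change, knockout minus wild type, of the 30 ligands and 13 receptors tested, with SEs as bars. Red marks Ccl8 (1.77) and Cxcr4 (0.88), the members past an adjusted p of 0.05, and grey the other 41.

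Atypical receptors hold or clear chemokines. Ackr1, the Duffy antigen, sits on the endothelium of small veins and on red cells and carries ligands across vessels. It read 6.19, 6.11 and 6.11 in wild type and 6.77, 6.46 and 6.43 in knockout arrays. The knockouts lay above the wild types, with a change of 0.42 ± 0.11 (SE; limma adjusted p = 0.119), and 0.31 without knockout array 1. Ackr4, which takes up CCL19, CCL21 and CCL25, read 5.39, 5.46 and 5.47 against 5.70, 5.60 and 5.67. Its change of 0.22 ± 0.09 (SE; limma adjusted p = 0.25) was small but of like size in all arrays. Ackr2, which clears inflammatory CC ligands, had a change of -0.08 ± 0.15 (SE).

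Ccr7 guides dendritic cells and naive T cells to lymph nodes. It read 5.16, 5.13 and 5.18 in wild type and 5.21, 5.27 and 5.40 in knockout arrays, without overlap, with a change of 0.13 ± 0.10 (SE; limma adjusted p = 0.515). Its ligand Ccl19 read 6.45, 6.52 and 6.41 against 6.44, 6.50 and 5.86, so that knockout array 3 alone was low, with a change of -0.19 ± 0.16 (SE; limma adjusted p = 0.59). The other 4 probe sets of Ccl19 had differences of -0.23 to -0.19. Ccl22, a ligand of CCR4 that dendritic cells and macrophages make, read 4.10, 4.29 and 4.37 against 4.60, 4.45 and 4.54. Its groups did not overlap, with a change of 0.28 ± 0.11 (SE; limma adjusted p = 0.239), at a level near the dim filter. Its neighbour Ccl17, also a ligand of CCR4, had a change of 0.07 ± 0.11, and Ccr4 itself one of 0.22 ± 0.12 (SE).

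Ccl25, a ligand of CCR9 known from thymus and gut, had 2 probe sets that differed. The one with the higher mean, used for the test, read 6.23, 6.25 and 6.25 in wild type and 6.05, 6.32 and 6.09 in knockout arrays, with a change of -0.09 ± 0.10 (SE; limma adjusted p = 0.701). The other read 6.79, 6.35 and 6.78 in wild type and 5.77, 5.71 and 5.44 in knockout arrays, with all knockouts below all wild types and a difference of -0.9996. Their means over all arrays were 6.20 and 6.14. With the mean of both probe sets the change was -0.55 (limma adjusted p = 0.0618). The direction was the same and the size was not, so the level of Ccl25 transcript in the knockouts is uncertain.

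The remaining members tested did not pass and their groups overlapped. Among the ligands, Cxcl16, a membrane-bound ligand of CXCR6, had a change of 0.33 ± 0.16 (SE), which was 0.16 without knockout array 1. Ccl4, or MIP-1 beta, was at 0.27 ± 0.16, Ccl3, or MIP-1 alpha, at 0.12 ± 0.13, and Ccl5, or RANTES, at -0.07 ± 0.10 (SE). Cxcl13, the B cell attractant, was at 0.21 ± 0.21, and Cxcl1 and Cxcl5, ligands of the neutrophil receptor CXCR2, were at -0.04 ± 0.15 and -0.08 ± 0.11 (SE). The transmembrane ligand Cx3cl1 and its receptor Cx3cr1, a marker of resident myeloid cells, were at 0.15 ± 0.13 and 0.21 ± 0.15 (SE). Ccl20, Ccl28, Cxcl17 and Xcl1 lay between -0.14 and 0.11, and the receptors Ccr6, Ccr10 and Cxcr1 between -0.12 and 0.18.

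Genes that work with chemokines were read from 6 further lists. At an unadjusted p of 0.05, 8.16% of all genes tested were higher and 10.3% lower, the shares to set beside each list. In chemokine receptor signalling, 0 of 27 genes passed, with a median change of 0.10 and 3 higher and 2 lower at an unadjusted p of 0.05. Elmo1, which links the receptors to Rac, was at 0.54 ± 0.15, and Pik3r5, a regulatory subunit of phosphoinositide 3-kinase gamma, at 0.30 ± 0.10 (SE). In Toll-like receptor and NF-kappaB signalling, 0 of 19 passed, with a median of 0.10 and 4 higher and 1 lower at an unadjusted p of 0.05. Nfkbib, an inhibitor of NF-kappaB, was at -0.47 ± 0.10 and Tlr9, a receptor of bacterial DNA, at 0.34 ± 0.12 (SE). Among proinflammatory cytokines and their receptors, 0 of 18 passed, with a median of 0.09 and 2 higher and 0 lower at an unadjusted p of 0.05, namely Il18 at 0.53 ± 0.19 and Tnfrsf1b, a TNF receptor, at 0.28 ± 0.11 (SE). Il1a, Il6, Il10 and Csf2 were dim.

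Genes of leukocyte adhesion had the largest median of these lists, 0.22, with 0 of 14 past the threshold. At an unadjusted p of 0.05, 4 were higher and 0 lower, beside 8.16% and 10.3% of all genes tested. The groups did not overlap in 7 of the 14 genes, with all knockouts above the wild types (11.1% of all genes tested in that direction). Of this list Vcam1 and Pecam1 are also satellite cell and endothelial markers here. Cd44, a hyaluronan receptor, was at 0.66 ± 0.19 and the integrin subunit Itgb1 at 0.37 ± 0.10 (SE). Among proteoglycans and heparan sulfate enzymes that hold chemokines at the cell surface, 0 of 17 passed, with a median of 0.04. At an unadjusted p of 0.05, 6 of these were higher and 1 lower, beside the same shares of all genes tested. Sulf2, which trims sulfate from heparan sulfate, was at 0.75 ± 0.15 (limma adjusted p = 0.058) and Ext1, which elongates its chains, at 0.52 ± 0.16 (SE).

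Among proteases that cut chemokines and chemokine-like attractants, 1 of 15 rose (0.321% of all genes tested), with a list median of 0.10. At an unadjusted p of 0.05, 4 were higher and 1 lower, beside 8.16% and 10.3% of all genes tested. The gene that rose was Anpep, aminopeptidase N, which removes amino-terminal residues from peptides and is carried by myeloid and connective tissue cells. It read 7.81, 7.88 and 7.98 in wild type and 9.38, 8.53 and 8.98 in knockout arrays, without overlap. The change was 1.07 ± 0.19 (SE; limma adjusted p = 0.0426), or 2.10-fold. The call was lost after median centring (adjusted p = 0.0825), without the variance trend (0.0502), without any 1 wild type array (0.203, 0.19 and 0.173) and without knockout array 3 (0.0847), with changes of 1.03 to 1.12 in these alternatives. Fibroblast and fibro-adipogenic progenitor markers had a positive change in all 8 genes and a median of 0.67, with 0 past the threshold, 5 higher at an unadjusted p of 0.05, and summed intensities of 11762 to 12870 in wild type and 13189 to 17791 in knockout arrays. The part of these cells and of macrophages in the change of Anpep was not tested.

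Markers of the other leukocytes that carry these receptors were often dim. Of 11 neutrophil markers 4 were dim (S100a8, Ly6g, Ngp and Mmp8), with 0 of 7 tested past the threshold and 1, Csf3r, higher at an unadjusted p of 0.05 (8.16% of all genes tested). Of 11 T and NK cell markers 4 were dim (Cd3g, Ncr1, Klrb1c and Gzma), with 0 of 7 tested past the threshold and Cd4 at 0.83 ± 0.21 (SE), the 1 gene higher at that unadjusted p. Of 6 B cell markers 3 were dim (Ms4a1, Cd79a and Cr2), with 0 of 3 tested past the threshold and Pax5 at -0.27 ± 0.10 (SE), the 1 gene lower at that unadjusted p (10.3% of all genes tested). Mast cell and eosinophil markers had 3 of 10 dim (Fcer1a, Ms4a2 and Prg2) and 0 of 7 tested at an unadjusted p of 0.05. Their summed intensity was 524 to 737 in wild type arrays and 1097, 783 and 283 in knockout arrays 1, 2 and 3. Ccl11 and Ccl24 had the same order over the knockout arrays, but so had other members, among them Cxcl14 and Ackr1. The part of these cells in the values of Ccl11 and Ccl24 was not tested. Pericyte and smooth muscle markers had a median of 0.33 over 8 genes, with 0 past the threshold, 5 higher at an unadjusted p of 0.05 and a summed intensity of 4528 to 5132 in wild type and 5406 to 5775 in knockout arrays. Among dendritic cell markers, with Clec9a dim, 1 of 7 tested fell (0.673% of all genes tested), and the median was -0.03. The gene that fell was the lectin Cd209a, at -1.61 ± 0.12 (SE; limma adjusted p = 0.00124).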

How the data were processed

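Arrays of 3 wild type and 3 Sparc knockout muscles were compared. The authors deposited 1 linear intensity per probe set and array. Per the submitters' processing notes they used RMA and Affymetrix Expression Console (version 1.3.0.187). RMA normalizes arrays together and shrinks differences of dim probe sets. The sources used here do not give a genome build. The number of arrays limits the precision.

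Intensities were log2-transformed, which the design had set for linear deposited values. Names came from the platform annotation: 21789 probe sets had 1 symbol, 1621 several and 12146 none. Probe sets with several symbols were left out, 7 of them with chemokine symbols. The highest-mean probe set stood for a gene. Genes under the 25th percentile (3.90) were called dim, leaving 16487.

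The genotype test used limma (version 3.58.1, R 4.3.3; eBayes with a trend on mean level, two-sided, Benjamini-Hochberg, threshold 0.05), tested on simulated data. Errors are SDs over 3 arrays or moderated SEs. Values in every array are given for members past the threshold, up to 12 with groups that do not overlap, the 3 brightest ligands and receptors, and, for pairs set in the design, the ligand or receptor partner, and for others chosen after their values were seen (Ccl2, Ccl7, Ccl6, Ccl9, Ccl24, Ccl25, Anpep and Fn1). In other lists genes past the threshold or the 2 with the smallest p could be named. The members and lists were chosen with earlier results of these data known. Alternatives changed the dim filter, normalization, probe sets, variance model, array weights, replicate block and arrays included. One further gene list is not reported here.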

Additional observations from a re-analysis of the deposited data

How the results depend on the processing

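The count of chemokine and receptor genes that rose was 2 in the main test and 1 to 2 with 1 array left out, and it was 1 (Ccl8) without any 1 of the wild type arrays. The count that fell was 0 in the 15 alternatives. Of the 41 members tested that did not pass, 0 passed in any alternative, 24 kept their direction in all that were run and 17 changed it in at least 1. No alternative tested the lower-mean probe set of Ccl25 alone, which had a difference of -0.9996. The medians of ligands and receptors, 0.060 and 0.18, moved by less than the spread between knockout arrays. That of ligands was 0.020 after median centring, 0.021 after a second quantile normalization, and 0.031 and 0.094 without knockout arrays 1 and 3. Over all genes, 53 were higher and 111 lower. These counts were 26 higher after median centring, 110 higher and 219 lower with array weights, and 6 to 423 higher and 20 to 594 lower with 1 array left out, the upper ends without knockout array 2. With the replicate block 64 genes were lower, and the members called were again Ccl8 and Cxcr4. Same-numbered samples deviated together at correlations of 0.0088, 0.082 and -0.020, so the numbers were not taken as pairs. The cause of these shifts was not tested. With 3 arrays a group and no detection calls, small changes and those of dim genes are not resolved.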

Other observations

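Among the probe sets left out because they carry several symbols, 4 are annotated to copies of Ccl21 and predicted genes together and hold identical values, so they count as 1 measurement and no single gene can be assigned. It read 9.67, 9.58 and 9.68 in wild type arrays and 11.16, 9.73 and 8.12 in knockout arrays 1, 2 and 3. The other 3 are annotated to Ccl27 copies and other genes. One of these read 9.32, 9.01 and 8.94 in wild type and 8.88, 8.68 and 8.60 in knockout arrays. The others hold identical values, 8.85, 8.52 and 8.48 in wild type and 8.43, 8.21 and 8.22 in knockout arrays. In each, all knockouts lay below all wild types, as in 13.8% of all genes tested. The Ccl21 and Ccl27 probe sets were not tested.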
